A study of Homo sapiens with 3 samples.

Results

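The genes described here are 44 genes that carry out DNA replication or mark S phase, from the loading of the MCM helicase to fork progression and the G1/S cyclins. They were taken from a fixed list of symbols and matched through their Ensembl identifiers to rows of a count table of 58037 genes, and all 44 were found. The table holds 3 bulk RNA libraries of RWPE1, an epithelial line from normal adult prostate that was immortalized with a human papillomavirus, 1 library for each condition and so without replicates. The OLFM4-wild library came from OLFM4-wild type cells and the OLFM4-knockout library from cells in which OLFM4 had been disrupted with CRISPR/Cas9 nickase plasmids. The methods describe stable lines selected with puromycin and RNA from cells sorted for a GFP reporter, and the study elsewhere calls the cells clones, so any feature of a line or clone goes with its library. The text of the study's results names the sorting for the knockout cells, so a difference in sorting between libraries cannot be told apart from the genotype. The third library is labelled OLFM4-active. Per the methods, plasmids that activate OLFM4 were used to make the reporter cells called OLFM4-wild, and OLFM4-active cells have no separate account there. OLFM4 itself had 214 counts (11.8 CPM) for OLFM4-wild, 131 counts (2.55 CPM) for OLFM4-knockout and 16 counts (0.67 CPM) for OLFM4-active, so its level in the third library goes against the label. It is therefore called the active-labelled library, and the others the wild and the knockout library.

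Replication begins when the origin recognition complex, CDC6 and CDT1 load the ring of MCM2 to MCM7 onto DNA in G1. CDC45 and the GINS complex then turn this ring into the active helicase in S phase, after which polymerase alpha-primase starts new strands that polymerases delta and epsilon extend on the PCNA clamp. Transcription of many of these genes is driven by E2F factors, which are held back by the retinoblastoma protein, and the papillomavirus E7 protein is known to inactivate that protein. Because these are bulk libraries, more cells in S phase and more RNA per cell cannot be told apart in any value below.

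The totals were 16309906 counts in the wild library, 58837147 in the knockout library and 23224216 in the active-labelled library. Values in CPM are counts scaled to a library of 1000000 counts after correction with TMM factors. Fold changes are differences of log2 CPM with 0.5 counts added, written log2(KO/W) for knockout over wild, log2(Active/W) for active-labelled over wild and log2(KO/Active) for knockout over active-labelled. Ranges in parentheses are 95% Clopper-Pearson intervals, which are exact for counts. They cover counting error only, so every comparison is between libraries and no test between conditions was possible. Scaling by library totals in place of TMM shifted log2(KO/W) of every gene by -0.35, log2(Active/W) by -0.11 and log2(KO/Active) by -0.24. The distance from the median of the 16600 genes that averaged 1 CPM or more, called the genes tested, is the same under every scaling tried. The libraries held the basal keratin genes KRT5 and KRT14 at 222265 and 72793 counts in the wild library, whereas the luminal gene KLK3 had 2 counts there and 0 in the other libraries, and the luminal gene KLK2 had 0 in all 3. A list of 6 basal genes summed to 19102, 41272 and 22815 CPM in the wild, knockout and active-labelled libraries. Of the genes of other cell types, PTPRC had at most 2 counts and COL3A1, LUM, CD3E, LYZ and CDH5 had 0. Lists of these genes summed to 57.9, 43.5 and 35.7 CPM for fibroblasts and smooth muscle, 31.4, 24.5 and 19.8 CPM for leukocytes, nearly all of it CD68, and 1.76, 0.838 and 0.46 CPM for endothelium, in the order wild, knockout and active-labelled. The part of these lists in the results was not tested.

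The promoters of these genes held E2F letters more often than those of other genes. RefSeq promoters on GRCh38.p14, taken from 250 bases before to 50 bases after each start, were at hand for 37 of the 44 genes. The letters TTTCCCGC, TTTCGCGC, TTTGCCGC or TTTGGCGC, on either strand, were present for 21 of these 37 genes (56.8%). They were present for 6.8% of the 10268 coding genes tested that had a promoter, for 3.99% of all 27305 genes in the promoter table and for 3 of 45 mitosis and G2/M genes (6.67%). The promoters shown here, from 200 bases before to 20 bases after the start, belong to genes on which the results below turn, and capitals mark the E2F letters. A match is a description of the letters and does not show that a factor was bound.
MCM2, chr3:127598211-127598430, plus strand: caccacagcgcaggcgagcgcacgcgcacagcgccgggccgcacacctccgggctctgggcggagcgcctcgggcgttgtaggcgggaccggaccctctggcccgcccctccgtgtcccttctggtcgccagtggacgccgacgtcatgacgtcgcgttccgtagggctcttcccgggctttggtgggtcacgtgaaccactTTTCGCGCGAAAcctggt
MCM3, chr6:52284723-52284942, minus strand: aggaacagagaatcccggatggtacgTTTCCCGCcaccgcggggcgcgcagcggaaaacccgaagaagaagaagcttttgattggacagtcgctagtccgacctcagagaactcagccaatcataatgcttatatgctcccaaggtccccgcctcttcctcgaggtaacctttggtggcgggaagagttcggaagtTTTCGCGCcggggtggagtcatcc
MCM6, chr2:135876424-135876643, minus strand: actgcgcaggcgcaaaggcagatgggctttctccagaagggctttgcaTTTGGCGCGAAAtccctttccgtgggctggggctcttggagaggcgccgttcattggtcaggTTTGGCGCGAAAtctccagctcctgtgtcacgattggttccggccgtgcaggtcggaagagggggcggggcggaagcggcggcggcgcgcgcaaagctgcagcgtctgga
MCM7, chr7:100101378-100101597, minus strand: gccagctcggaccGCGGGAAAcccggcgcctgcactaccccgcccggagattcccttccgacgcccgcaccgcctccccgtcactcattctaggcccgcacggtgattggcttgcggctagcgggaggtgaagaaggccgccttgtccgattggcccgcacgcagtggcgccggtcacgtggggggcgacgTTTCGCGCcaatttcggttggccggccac
PCNA, chr20:5126603-5126822, minus strand: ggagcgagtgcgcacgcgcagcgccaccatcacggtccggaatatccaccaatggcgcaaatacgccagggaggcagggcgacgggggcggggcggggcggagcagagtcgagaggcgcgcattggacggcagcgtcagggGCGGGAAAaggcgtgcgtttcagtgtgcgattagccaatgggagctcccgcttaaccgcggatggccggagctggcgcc
CDT1, chr16:88803589-88803808, plus strand: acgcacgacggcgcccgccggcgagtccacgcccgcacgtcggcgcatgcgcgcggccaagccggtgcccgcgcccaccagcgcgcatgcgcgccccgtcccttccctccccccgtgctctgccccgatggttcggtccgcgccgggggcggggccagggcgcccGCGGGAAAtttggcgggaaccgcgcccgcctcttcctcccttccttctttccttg
CCNE1, chr19:29811791-29812010, plus strand: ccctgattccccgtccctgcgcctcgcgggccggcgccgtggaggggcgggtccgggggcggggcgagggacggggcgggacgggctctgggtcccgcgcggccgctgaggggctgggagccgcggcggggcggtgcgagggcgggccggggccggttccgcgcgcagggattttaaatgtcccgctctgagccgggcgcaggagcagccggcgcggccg

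MCM6 holds a pair of overlapping matches at each of 2 places, and MCM2 has its overlapping matches just after the start. CCNE1, the gene with the largest difference between libraries, holds none of these letters in this window. The CCAAT letters of the NFY box were found for 23 of the 37 genes (62.2%) and for 43.7% of coding genes tested. The GC box, GGGCGG, was found for 29 of 37 (78.4%), close to the 77% of coding genes tested, and the E-box CACGTG, which MYC can bind, for 5 of 37 (13.5%) against 12.7%. The CHR letters TTTGAA or TTCGAA, known from promoters of mitotic genes, were found for 2 of the 37 genes (5.41%) and for 34 of the 45 mitosis and G2/M genes (75.6%). CCAAT letters were present for 32 of those 45 genes (71.1%), GC box letters for 33 (73.3%) and the E-box for 5 (11.1%). All motifs were searched on both strands, and overlaps between different motifs were allowed.

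**Figure D1:**
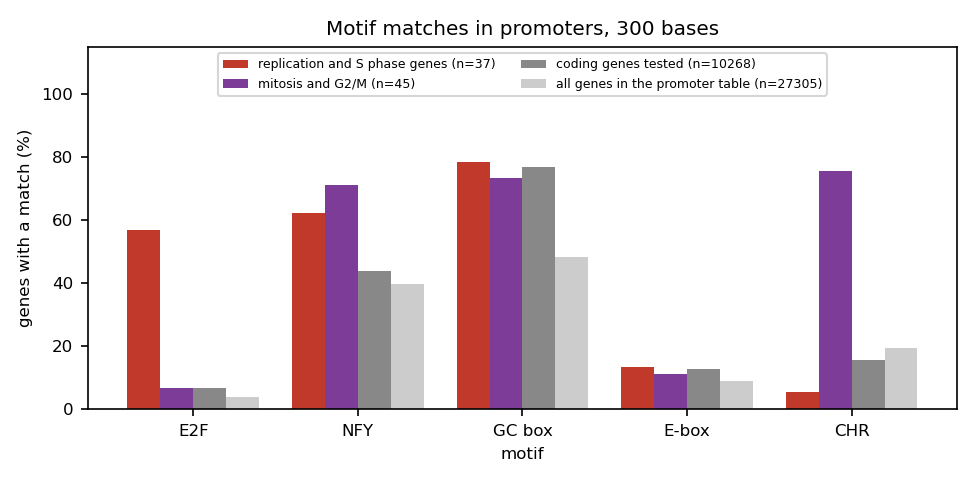
Percent of genes with at least 1 match in a 300 base promoter (vertical axis) for 5 motifs (horizontal axis), with a bar for each set of genes. The E2F bar of the replication and S phase genes reaches 56.8% against 6.8% of coding genes tested, whereas the CHR bar is high for the mitosis and G2/M genes, at 75.6%, and at 5.41% for the replication and S phase genes.

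The 44 genes had a median log2(KO/W) of 0.39 (quartiles 0.15 to 0.59). Above 0 were 40 genes (90.9%), where 56.7% of all genes tested were. The median of all genes tested was 0.097, and 35 of the 44 genes lay above it. Only 2 of the 44 genes, MCM2 and CCNE1, had a log2(KO/W) above 1, where 5.77% of all genes tested did, and 0 had one below -1, where 7.56% did. The share past 1 was thus near that of other genes. For 35 genes (79.5%) the whole interval was above 0, against 42.4% of genes tested, and for 3 genes it was below 0, against 29.8%. The 44 genes are all coding, so coding genes that averaged 10 CPM or more are a closer comparison. Of these 9662 genes, 6091 were above 0, and the whole interval was above 0 for 5086 and below 0 for 2734. Their median was 0.16, with 32 of the 44 genes above it, and the distance between the medians was 0.23. With library totals in place of TMM the median of the 44 genes was 0.037, with 24 genes above 0, and that of all genes tested was -0.26, and the distance of 0.29 between them stayed. Under all 5 scalings 24 genes were above 0 and 4, CDC45, CDT1, CLSPN and GINS1, were below 0, while the sign of the other 16 depended on the scaling. These were E2F1, GINS3, GINS4, MCM10, ORC6, POLA1, POLA2, POLE, POLE2, PRIM1, RFC1, RFC4, RFC5, RPA1, RPA2 and SLBP. How many of all genes tested kept their sign under all 5 scalings was not counted in any comparison. Whether the 44 genes differ from other genes in this cannot be told. With TMM the knockout library was the highest of the 3 for 35 genes, against 41.9% of genes tested, and with library totals for 22 genes, against 20.3%. In the plot of levels the difference between libraries is small for most genes, with the highest over the lowest CPM ranging from 1.05 for RFC1 to 2.45 for CCNE1.

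**Figure D2:**
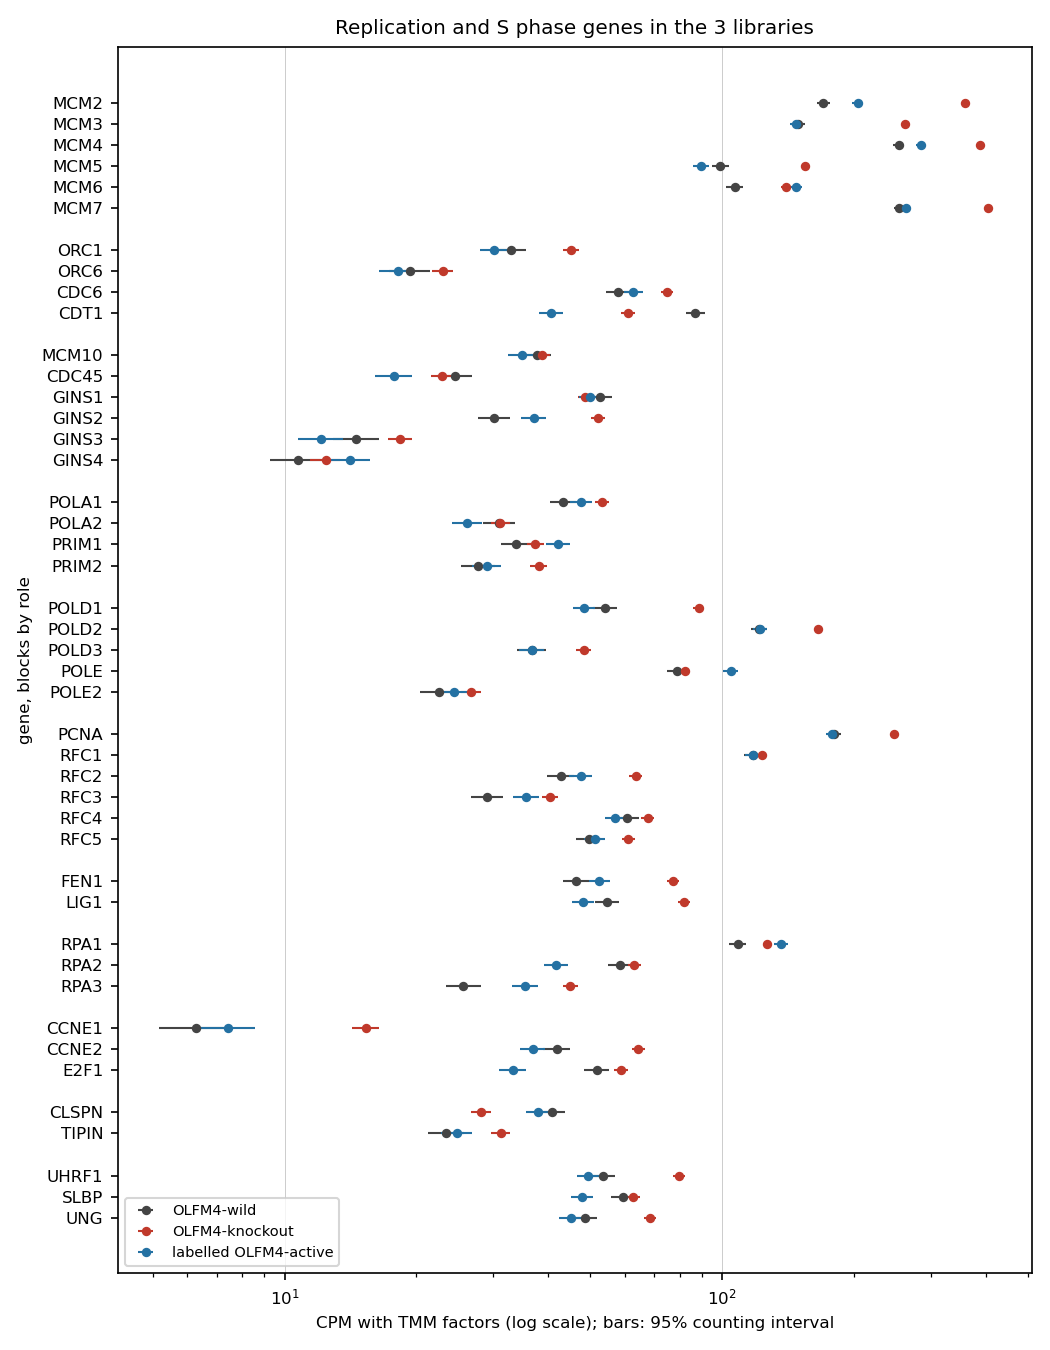
CPM with TMM factors (horizontal axis, log scale) of the 44 genes (vertical axis, in blocks by role) in each of the 3 libraries, with exact 95% counting intervals as bars. The red points of the knockout library lie farthest right for 35 genes, with the widest gap for CCNE1 and wide gaps also for MCM2, MCM3 and POLD1, while CDT1 and CLSPN lie farthest right in the wild library.

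The 6 subunits of the MCM helicase core were all higher in the knockout than in the wild library, with each of the 5 scalings. Their median log2(KO/W) was 0.66 with TMM. MCM2 (ENSG00000073111, chromosome 3 from 127598410 to 127622436 in GRCh38) had 3095 counts or 170.3 CPM in the wild library, 18458 counts or 360 CPM in the knockout library and 4877 counts or 204 CPM in the active-labelled library. Its log2(KO/W) with TMM was 1.08 (1.02 to 1.13), and library totals gave 0.73. MCM3 had 149, 262 and 148 CPM in the same order, a log2(KO/W) of 0.81 (0.75 to 0.87). MCM7, the most abundant core subunit per length, had 254, 405 and 263 CPM and a log2(KO/W) of 0.67 (0.63 to 0.72). MCM4 and MCM5 had log2(KO/W) values of 0.62 (0.57 to 0.67) and 0.64 (0.57 to 0.72). MCM6 stood apart from the other core subunits. It had 107, 140 and 148 CPM, the lowest log2(KO/W) of the core, 0.39 (0.31 to 0.46) with TMM and 0.034 with library totals, and the highest log2(Active/W), 0.47 (0.39 to 0.55).

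Subunits that work in equal number in 1 ring were thus not shifted equally. MCM2 had 159 counts per 100 MCM6 counts in the wild library (95% interval 151 to 169), 257 in the knockout library (250.5 to 265) and 138 in the active-labelled library (132 to 144). This ratio within a library does not depend on the scaling. Per kilobase of merged exons, the core ranged in the wild library from 13.6 CPM for MCM5 to 51.3 CPM for MCM7. MCM5 has a long merged exon length of 7268 bases over all its annotated transcripts, which lowers this value. The core subunits together had 53.9 counts per 100 counts of the other 38 genes in the wild library, 72.1 in the knockout library and 60.4 in the active-labelled library.

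The licensing factors that load this ring differed from each other. CDT1 (ENSG00000167513, chromosome 16 from 88803789 to 88809258), which brings the MCM ring to the origin, was highest in the wild library, with 86.8 CPM against 60.9 CPM in the knockout library and 40.7 CPM in the active-labelled library. Its 3 intervals do not overlap. Its log2(KO/W) was -0.51 (-0.60 to -0.42) and its log2(Active/W) -1.09 (-1.21 to -0.98), both below 0 with each scaling. GMNN, the inhibitor of CDT1, had 24.7, 37.9 and 32.1 CPM in the same order. There were therefore 352 CDT1 counts per 100 GMNN counts in the wild library (317 to 392.1), 161 in the knockout library (152 to 170.1) and 127 in the active-labelled library (115.4 to 140). CDC6, which works beside CDT1, had 57.8, 75 and 62.7 CPM and a log2(KO/W) of 0.37 (0.28 to 0.47). ORC1 and ORC6, subunits of the origin recognition complex, had 0.45 (0.33 to 0.59) and 0.25 (0.08 to 0.43), the latter with a sign that turned with library totals.

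The factors that activate the helicase were spread on both sides of the median of all genes tested. GINS2 had 30.2, 52 and 37.1 CPM in the wild, knockout and active-labelled libraries, and a log2(KO/W) of 0.79 (0.65 to 0.92). GINS1, another subunit of the same complex of 4, had 52.7, 48.6 and 49.8 CPM and a log2(KO/W) of -0.12 (-0.22 to -0.01). GINS3 and GINS4 had 0.33 (0.13 to 0.53) and 0.21 (-0.02 to 0.45), both turning sign with library totals. CDC45, which completes the helicase, had 24.5, 22.9 and 17.7 CPM, and its log2(KO/W) of -0.10 had an interval that included 0 (-0.25 to 0.07). MCM10, needed for helicase activation, had 37.8, 38.7 and 34.8 CPM and 0.04 (-0.09 to 0.16), with a sign that depended on the scaling. A difference in CDC45 or MCM10 between the wild and the knockout library was not detectable at this depth with TMM.

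**Figure D3:**
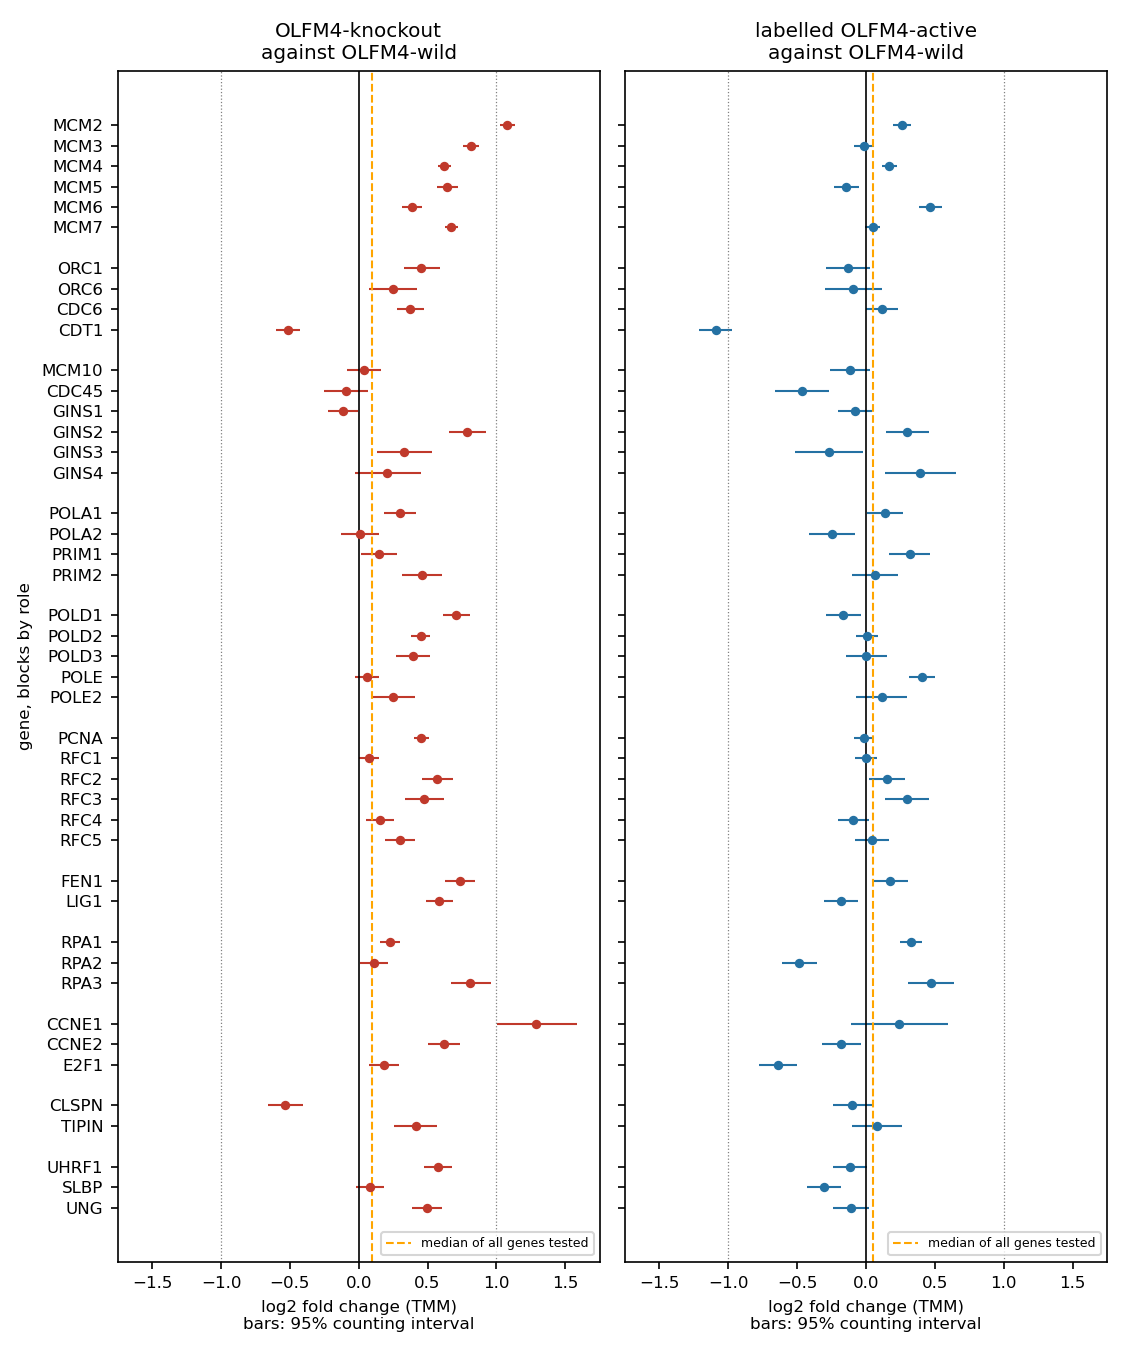
Log2 fold changes with TMM (horizontal axes) of the 44 genes (vertical axis, in blocks by role) in the knockout library (left) and in the active-labelled library (right), each against the same wild library, with exact 95% counting intervals as bars, dotted lines at -1 and 1 and a dashed line at the median of all genes tested. On the left most points lie right of the dashed line, with CCNE1 and MCM2 past 1, and on the right the points spread to both sides, with CDT1 past -1.

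The subunits of polymerases delta and epsilon had log2(KO/W) values from 0.06 to 0.71 among the 44 genes. POLD1, the catalytic subunit of polymerase delta, had 54.1 CPM in the wild library, 88.4 CPM in the knockout library and 48.3 CPM in the active-labelled library, a log2(KO/W) of 0.71 (0.61 to 0.81). POLD2, the most abundant of these subunits per length, had 121, 166 and 122 CPM and 0.45 (0.38 to 0.52), and POLD3 had 0.39 (0.27 to 0.52). POLE, the catalytic subunit of polymerase epsilon, had 78.8, 82.1 and 105 CPM, a log2(KO/W) of 0.06 (-0.03 to 0.15) and a log2(Active/W) of 0.41 (0.31 to 0.50). POLE2 had 0.25 (0.09 to 0.41), and both turned sign with library totals. The smaller subunits POLE3, POLE4 and POLD4, which are outside the 44 genes, had 0.65, 0.74 and 0.38, and were named after their values were seen. Of the subunits of polymerase alpha-primase, which starts each strand, PRIM2 had 0.46 (0.32 to 0.60), POLA1 0.30 (0.18 to 0.41) and PRIM1 0.15 (0.01 to 0.28). POLA2 had 30.9, 31.1 and 26.1 CPM and 0.01 (-0.13 to 0.15). Of these 4 subunits, PRIM2 kept its sign with library totals and the others did not. PRIM1, the most abundant per length, had 33.8, 37.5 and 42.1 CPM and was highest in the active-labelled library.

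PCNA, the sliding clamp, was the most abundant of the 44 genes per length. It had 129 CPM per kilobase in the wild library, 176 in the knockout library and 127 in the active-labelled library, or 180.4, 247 and 178 CPM. Its log2(KO/W) was 0.45 (0.40 to 0.51) with TMM and 0.10 with totals, and its levels in the wild and the active-labelled library overlapped within counting error. Among the subunits of the clamp loader that opens PCNA, RFC2 had 0.57 (0.46 to 0.69), RFC3 0.48 (0.34 to 0.62) and RFC5 0.30 (0.19 to 0.41). RFC4 had 0.15 (0.06 to 0.25) and RFC1, its large subunit, 0.07 (0.00 to 0.14). The signs of RFC1, RFC4 and RFC5 turned with library totals. FEN1, which trims flaps on the lagging strand, had 46.4, 77.2 and 52.4 CPM and 0.73 (0.63 to 0.84), and LIG1, which seals the nicks left, had 0.58 (0.48 to 0.69).

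The single-strand binding protein RPA also had subunits that differed from each other. RPA3 had 25.6 CPM in the wild library, 45 CPM in the knockout library and 35.5 CPM in the active-labelled library, and its log2(KO/W) was 0.81 (0.67 to 0.96). RPA2, the most abundant subunit per length in the wild and the knockout library, had 58.3, 63 and 41.7 CPM, a log2(KO/W) of 0.11 (0.01 to 0.21) and a log2(Active/W) of -0.48 (-0.61 to -0.36). RPA1 had 0.22 (0.15 to 0.30) and 0.33 (0.25 to 0.41) in the same comparisons. The log2(KO/W) of RPA1 and RPA2 turned sign with library totals.

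The G1/S cyclins held the largest difference. CCNE1 (ENSG00000105173, chromosome 19 from 29811991 to 29824312), a cyclin E gene whose protein drives entry into S phase with CDK2, had 114 counts or 6.27 CPM in the wild library, 788 counts or 15.4 CPM in the knockout library and 177 counts or 7.41 CPM in the active-labelled library. Its log2(KO/W) was 1.29 (1.01 to 1.59) and its log2(KO/Active) 1.05 (0.81 to 1.29). The first of these was 0.93 with library totals. CCNE2, the other cyclin E gene, had more CPM per kilobase in each library, with 41.9, 64.4 and 37 CPM and a log2(KO/W) of 0.62 (0.51 to 0.74). There were 15 CCNE1 counts per 100 CCNE2 counts in the wild library (12.2 to 18.3), 23.8 in the knockout library (22 to 25.8) and 20 in the active-labelled library (17 to 23.6). E2F1, a transcription factor that activates genes of S phase, had 51.7, 58.7 and 33.2 CPM. Its log2(KO/W) was 0.18 (0.08 to 0.29) with TMM and -0.17 with library totals, and its log2(Active/W) was -0.64 (-0.78 to -0.50).

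CLSPN, which relays the fork checkpoint from ATR to CHEK1, had the lowest log2(KO/W) of the 44 genes, -0.53 (-0.66 to -0.40), and was below 0 with each scaling. It had 40.8 CPM in the wild library, 28.2 CPM in the knockout library and 38 CPM in the active-labelled library. TIPIN, a fork protection factor, had 23.4, 31.2 and 24.8 CPM and 0.41 (0.26 to 0.57). UHRF1, which keeps DNA methylation through replication, had 0.57 (0.47 to 0.68), and UNG, which removes uracil from DNA, had 0.49 (0.39 to 0.60). SLBP, which binds the stem loop of replication-dependent histone RNAs, had 59.2, 62.6 and 48 CPM and 0.08 (-0.02 to 0.18), a sign that also depended on the scaling. It was the most abundant of these last genes per length.

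With TMM the active-labelled library was centred on the wild library for the 44 genes. Their median log2(Active/W) was 0.00 with quartiles of -0.13 and 0.17, against a median of 0.047 for all genes tested, and 22 genes were above 0, where 53.9% of genes tested were. With library totals their median was -0.11 with 15 genes above 0, and that of all genes tested was -0.07. Without the 10 most abundant genes in the totals, their median was -0.13 with 14 genes above 0, and that of all genes tested was -0.08. The sign depended on the scaling for 11 genes, CDC6, MCM3, MCM7, PCNA, POLD2, POLD3, POLE2, PRIM2, RFC1, RFC5 and TIPIN. The interval lay wholly above 0 for 14 genes (31.8%) against 35.2% of genes tested, and wholly below 0 for 11 genes (25%) against 28.1%. Among the 9662 coding genes that averaged 10 CPM or more, it lay above 0 for 4388 and below 0 for 2580. CDT1 was the 1 gene below -1, where 6.73% of genes tested lay, and 0 genes were above 1, where 3.78% did. Besides CDT1, the lowest values were those of E2F1, RPA2 and CDC45, the last at -0.46 (-0.66 to -0.27), and the highest were those of RPA3 at 0.47 (0.31 to 0.64) and MCM6. The levels of MYC, a transcription factor that drives proliferation, were 274, 510.3 and 486 CPM in the wild, knockout and active-labelled libraries. MYC had a log2(KO/W) of 0.90 (0.85 to 0.94) and a log2(Active/W) of 0.83 (0.78 to 0.87). The medians of the 44 genes were 0.39 and 0.00. Any relation between MYC and the 44 genes was not tested. The median log2(KO/Active) of the 44 genes was 0.39 with TMM, with 37 genes above 0 where 56.7% of genes tested were, and 0.15 with library totals, at a distance of 0.31 from the median of all genes tested. Of the 44 genes, 1, CCNE1, lay above 1, where 2.95% of genes tested did, and 0 lay below -1, where 3.39% did. The interval was wholly above 0 for 36 genes (81.8%) against 39.8% of genes tested, and wholly below 0 for 5, MCM6, PRIM1, POLE, RPA1 and CLSPN, against 28%. For the same 9662 coding genes these counts were 4513 and 3052. The sign of log2(KO/Active) depended on the scaling for MCM10, POLA1, POLE2, RFC1 and RFC3. These comparisons share libraries, so their values stand side by side and are not independent of each other.

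Genes of replication outside the 44 were described with fixed lists. Of 28 other replication factors, 23 had a log2(KO/W) above 0, where 56.7% of all genes tested did, and the median was 0.34. The list includes ORC2, at 0.11, and CDC7, DBF4 and TIMELESS, which were below 0 at -0.14, -0.01 and -0.30. CHTF18, of an alternative clamp loader, was highest at 0.81, and TICRR, which helps to load CDC45, was lowest at -0.75. In the active-labelled library the median of this list was 0.23, with TOP1, which relaxes DNA ahead of the fork, highest at 1.196. The median log2(KO/Active) of this list was 0.115, near the 0.079 of all genes tested. Of its 28 genes 17 were above 0 in that comparison, where 56.7% of all genes tested were. The 9 checkpoint kinases and their partners had a median log2(KO/W) of 0.34, from -0.26 for RAD17 to 0.89 for CDC25A, the phosphatase that activates CDK2. The 12 E2F and pocket protein genes had a median of 0.24, with E2F4 at 0.92 and E2F8, a repressor of E2F targets, at -1.09. In the active-labelled library, E2F2 was the lowest of them at -1.55. The 9 genes of nucleotide supply had a median of 0.09, from -0.93 for SAMHD1, which degrades dNTPs, to 0.51 for DUT, which removes dUTP. The 8 genes of replication-coupled chromatin had a median of 0.04, from -0.16 for ATAD2 to 0.62 for ASF1A. The 12 G1 cyclins and CDK inhibitors had a median of 0.30 and the widest range, from -2.32 for CDKN2B to 2.22 for CDKN1C, both inhibitors of CDKs. With library totals each of these medians of log2(KO/W) shifts by -0.35, which puts all 6 below 0.

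The median of the mitosis and G2/M genes was below that of all genes tested. The 53 genes of that list had a median log2(KO/W) of -0.46, with 9 genes above 0, where 56.7% of all genes tested were. Library totals shift this median by a further -0.35. The median log2(Active/W) of the list was -0.38, with 10 genes above 0, where 53.9% of all genes tested were. For log2(KO/Active) its median was 0.01, with 27 genes above 0, where 56.7% of all genes tested were. The extremes of log2(KO/W) in this list were TUBB4B at 0.76 and GAS2L3 at -1.73. MKI67, the Ki-67 gene used to mark cycling cells, had 943, 402.5 and 874 CPM and a log2(KO/W) of -1.23 (-1.26 to -1.20), and was chosen after its values were seen. The 44 genes together had 35.4 counts per 100 counts of the mitosis and G2/M genes in the wild library (35 to 35.7), 62.2 in the knockout library (61.9 to 62.6) and 40.4 in the active-labelled library (40 to 40.7). For the MCM core alone these values were 12.4, 26.1 and 15.2. PCNA had 19.1 counts per 100 MKI67 counts in the wild library, 61.4 in the knockout library and 20.4 in the active-labelled library. These ratios are taken within each library, do not depend on its scaling and were chosen with the values of both lists known. PCNA has a merged exon length of 1403 bases and MKI67 one of 12845 bases. Fold changes with the knockout library moved with gene length, as given below, and the part of length in these ratios was not tested.

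**Figure D4:**
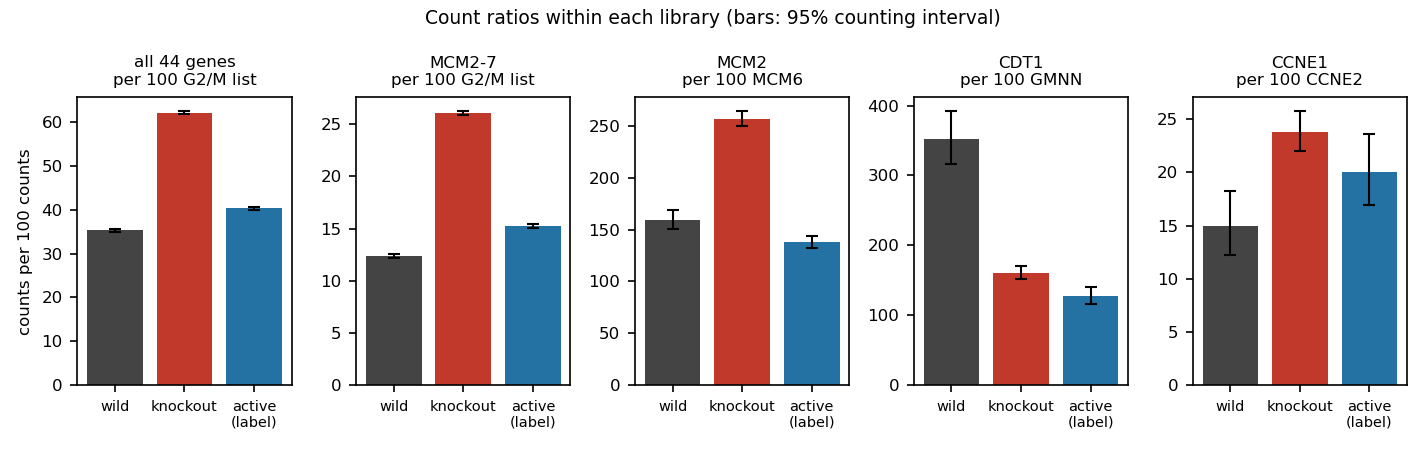
Counts of a gene or list per 100 counts of another in the same library (vertical axes, each from 0), with bars for the wild library, the knockout library and the active-labelled library and exact 95% counting intervals. The knockout bar is the highest for the 44 genes and for the MCM core against the G2/M list, at 62.2 and 26.1, and the wild bar is the highest for CDT1 against GMNN, at 352.

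**Figure D5:**
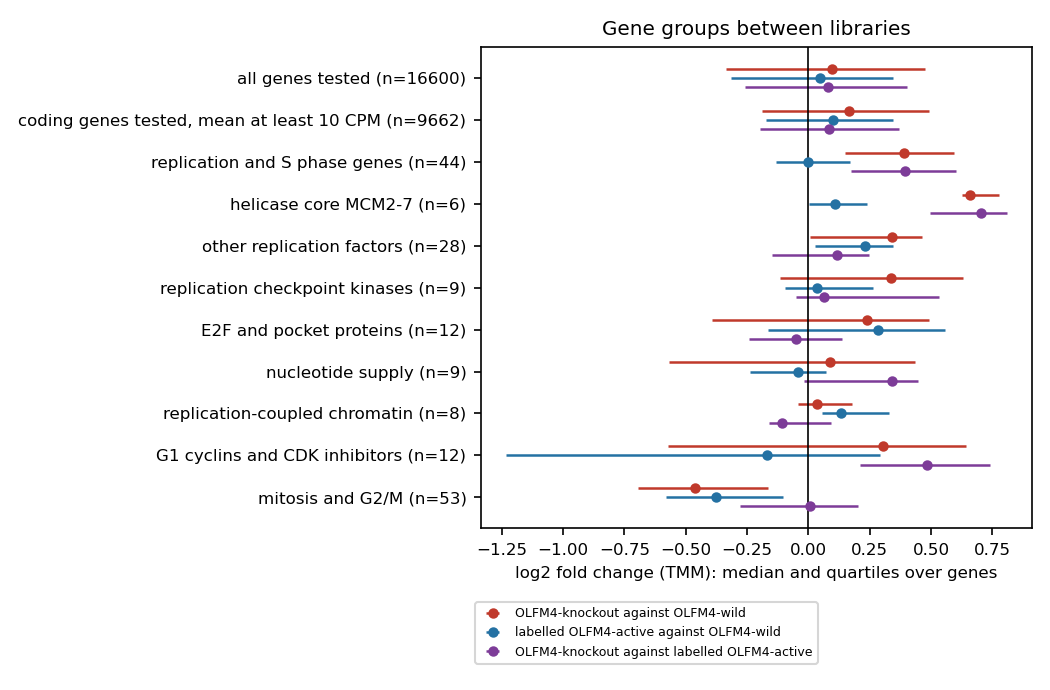
Median and quartiles over genes of the log2 fold change with TMM (horizontal axis) for all genes tested, for the replication and S phase genes, for the MCM core and for the other lists (vertical axis), in 3 comparisons between libraries that share libraries with each other. The replication and S phase genes lie at 0.39, 0.00 and 0.39, and the mitosis and G2/M genes at -0.46, -0.38 and 0.01.

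Gene length moved with the comparisons that use the knockout library. The genes tested were put into 3 classes of equal size by merged exon length, and the median log2(KO/W) was 0.26 for lengths up to 3006 bases, 0.14 for lengths up to 6225 bases and -0.062 for longer genes. The 13, 21 and 10 genes of replication and S phase in these classes had medians of 0.25, 0.45 and 0.19. For log2(KO/Active) the medians of all genes in the 3 classes were 0.25, 0.13 and -0.092, and those of the replication and S phase genes 0.42, 0.39 and 0.21. The short ones were thus at the level of other short genes in log2(KO/W) and above it in log2(KO/Active), while the longer ones were above genes of their length in both. Spearman's rho between exon length and log2(KO/W) was -0.14 across the 44 genes and -0.22 across the 16393 genes tested that have a length. For log2(KO/Active) these values were -0.27 and -0.26, and for log2(Active/W) 0.07 and -0.02. Each is a description across genes of the same pair of libraries. The part of length in the results was not tested. Between the 21 genes with E2F letters, the 16 without and the 7 with no promoter at hand, the medians of log2(KO/W) were 0.39, 0.27 and 0.62. Both CDT1 and CLSPN hold the letters.

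Of the 44 genes, 14 overlap another annotated gene on the same strand, among them MCM7, whose intron holds MIR106B, MIR93 and MIR25, PRIM1, which overlaps NACA, FEN1, which overlaps FADS2, and UNG, which overlaps ACACB. How reads in such overlaps were assigned is not given in the sources used here. The annotation names pseudogenes after 10 of the 44 genes, with 3 each for PCNA and RPA2 and 2 each for RPA3 and UNG. Reads that match a gene and its pseudogene alike are missing from counts of uniquely mapped reads, so levels of these genes are uncertain.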

How the data were processed

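Per the methods, total RNA of GFP-sorted RWPE1 cells, depleted of ribosomal RNA, was sequenced as stranded read pairs. There was 1 library for each of 3 conditions. The text of the study's results names the sorting for the knockout cells, and does not state whether the wild cells were sorted alike. The authors aligned the reads to GRCh38 with HISAT2 and counted uniquely mapped, reversely stranded pairs per gene with featureCounts, and they deposited these raw counts without normalization. The submitters' processing notes also name cutadapt. Each column of the table was tied to its sample by the code in the sample's description.

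Of the 58037 identifiers, 98.1% matched a symbol without their version number. GENCODE version 44 gave positions and merged exon lengths. TMM factors (1.11, 0.872 and 1.03) came from edgeR 4.0.16 in R 4.3.3, and log2 CPM were taken as in limma-voom with an offset of 0.5 counts. Genes that averaged 1 CPM or more were called tested, although no test was possible, and calls are values past 1 or -1 or intervals wholly on one side of 0. Fold change intervals are conditional Clopper-Pearson intervals. Python 3.11.15, numpy 2.4.6, pandas 2.3.3, scipy 1.17.1 and matplotlib 3.10.9 were used, and the calculations were tested on simulated data. Promoter sequences are from RefSeq.

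The genes and lists were chosen with earlier results of these data known. All 44 genes are named, with levels in each library for the 6 largest and 6 smallest values of log2(KO/W), knockout over wild, and for the most abundant gene of each role. Of the other lists the extremes are named, and the sum of the luminal list is not reported here. Alternatives were library totals, DESeq2 1.42.0 size factors, upper quartile factors, totals without the 10 most abundant genes, offsets of 1 or 5 counts, thinning to 16309906 counts and other filters.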

Additional observations from a re-analysis of the deposited data

How the results depend on the processing

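No paired analysis was possible because each condition has 1 library, and no replicate could be left out. With library totals the median log2(KO/W) of the 44 genes, 0.39 with TMM, was 0.037, and log2(KO/W) turned below 0 for 11 genes whose interval lay above 0 with TMM, at -0.28 for RFC1, -0.10 for ORC6, -0.11 for POLE2, -0.17 for E2F1, -0.055 for POLA1, -0.054 for RFC5, -0.24 for RPA2, -0.13 for RPA1, -0.20 for RFC4, -0.023 for GINS3 and -0.21 for PRIM1. With totals without the 10 most abundant genes that median was 0.13, and 8 genes turned, at -0.19 for RFC1, -0.0097 for ORC6, -0.011 for POLE2, -0.077 for E2F1, -0.15 for RPA2, -0.034 for RPA1, -0.10 for RFC4 and -0.11 for PRIM1. With upper quartile factors RFC1 turned, at -0.015. Of the genes with log2(KO/W) above 1, 2 with TMM, 0 were left with library totals, 1 with upper quartile factors and 1 with totals without the 10 most abundant genes. The median log2(Active/W), 0.00 with TMM, was -0.13 with totals without the 10 most abundant genes, where CDC6 turned, at -0.015. The median log2(KO/Active), 0.39 with TMM, was 0.15 with library totals, 0.29 with upper quartile factors and 0.26 with totals without the 10 most abundant genes. There RFC1 turned, at -0.16, -0.032 and -0.054 in that order, and with library totals MCM10, POLA1 and RFC3 also turned, at -0.084, -0.078 and -0.059. The number of genes with log2(KO/Active) above 1 was 1 with TMM and 0 under these 3 scalings and after thinning to the smallest total. The scalings move all genes of a library by 1 value, so they leave the order of the genes as it was. With DESeq2 size factors and offsets of 1 or 5 counts every gene stayed within its counting interval.

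The share of all genes tested beyond the thresholds moved with the filter. With at least 1 count in place of a mean of 1 CPM, 10.1% were above 1 and 24.2% below -1 for log2(KO/W), in place of 5.77% and 7.56%. These shares were 14.8% and 22.4% for log2(Active/W), in place of 3.78% and 6.73%, and 12.3% and 18.1% for log2(KO/Active), in place of 2.95% and 3.39%. Over coding genes that averaged 10 CPM or more they were 4.05% and 2.90%, 1.95% and 2.47%, and 0.90% and 1.749%.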
